A study of Homo sapiens with 36 samples.

Results

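Transcript levels of genes of glucose use were followed in A549 cells, an established human line of lung adenocarcinoma. They were measured during and after exposure to interleukin-1β (IL-1β), a proinflammatory cytokine. Such levels do not measure glucose uptake, lactate output or protein. The genes described are 30 genes of glycolysis and pyruvate metabolism, taken as the rows of the count tables whose Ensembl identifiers map to a list of symbols. The list holds the transporters SLC2A1, SLC2A3, SLC16A1 and SLC16A3, the upper glycolytic enzymes HK1, HK2, GPI, PFKL, PFKM, PFKP, ALDOA, ALDOC and TPI1, and the enzymes PFKFB2, PFKFB3 and PFKFB4, which make and break fructose 2,6-bisphosphate. It also holds the lower glycolytic enzymes GAPDH, PGK1, PGAM1, ENO1, ENO2 and PKM, the lactate dehydrogenase subunits LDHA and LDHB, the pyruvate dehydrogenase subunits PDHA1 and PDHB, and the pyruvate dehydrogenase kinases PDK1, PDK2, PDK3 and PDK4. All 30 were found among the 63677 genes listed, and all 30 passed the filter on low counts that left 19180 genes to test.

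The untreated control cells and the cells given IL-1β at 1 ng/ml were collected at days 6, 15 and 21 of exposure. Both arms were collected again at days 6, 15 and 30 after IL-1β had been taken away, when neither arm received the cytokine. The comparisons address which changes arise under prolonged exposure and which are still present once the cytokine is gone. Each of the 12 groups had 3 replicates, which gives 36 RNA sequencing libraries of 1 cell line grown in serum-containing RPMI medium. The labels call the replicates biological but do not say how the cultures were separated, so p-values measure the spread between these samples. Levels are given in CPM, the read count of a gene scaled to the size of its library with TMM factors. The fold changes and p-values come from the quasi-likelihood test of edgeR, with p-values adjusted over all tested genes by the Benjamini-Hochberg method. The standard error (SE) was derived from that test, as the absolute log2 fold change divided by the square root of the F statistic. A gene is said to have risen or fallen at an adjusted p under 0.05, and the mean response of a phase is the average log2 fold change over its 3 time points. The test treats libraries of different days as independent. Whether the same cultures were sampled at successive days is not given in the labels. The SE and p-values of mean responses, and of differences between days or phases, rest on that assumption.

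Between 9116032 and 23570026 reads per library lay on genes. The share of mitochondrially encoded genes was 5.61% to 7.75% in 25 libraries and 11.8% to 24.6% in the other 11, called mitochondria-rich here. They were 6 control and 5 IL-1β libraries, 8 of them of replicate 2 and 8 of them after withdrawal. Without them, the controls at days 6 and 15 after withdrawal have 1 library each, which is then assumed to vary like the other groups. Of the epithelial markers, KRT8, KRT18 and CDH1 were high in the controls of the exposure phase, with medians of 3530, 1834 and 231 CPM, and all 3 fell in the mean response to IL-1β, by 2.12, 2.00 and 1.69 on the log2 scale. KRT7 was at 1590 CPM, whereas KRT19 and EPCAM had medians of 0.059 and 0.65 CPM. The IL-1β response genes CXCL8, CCL2, IL6, NFKBIA and ICAM1 all rose, with CXCL8 going from a median of 0.87 to 95.7 CPM. Of the markers of other cell types, CD3E was at 0 and PTPRC at most 0.0974 CPM in the exposure phase, while ITGAM was present, at 6.44 to 9.55 CPM in the controls and 3.44 to 14.6 CPM in the exposed cells (adjusted p = 0.497). The fibroblast marker COL1A1 rose by 1.02 over exposure (adjusted p = 3.59e-05), from a median of 1.08 to 2.22 CPM, while COL1A2, PDGFRA, PDGFRB, CDH5 and VWF were at most 0.512 CPM, and the part of these genes in the results was not tested.

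Glycolysis splits glucose into pyruvate in the cytosol, with net gain of ATP and NADH. Hexokinase, phosphofructokinase and pyruvate kinase catalyse its irreversible steps, and fructose 2,6-bisphosphate, set by the PFKFB enzymes, is a strong activator of phosphofructokinase. Pyruvate is either reduced to lactate by lactate dehydrogenase and exported, or oxidised in mitochondria by the pyruvate dehydrogenase complex, which the PDK kinases switch off by phosphorylation. Carcinoma cells often turn much of their glucose into lactate even in oxygen, and many genes of the pathway are known targets of the hypoxia-inducible factors and of MYC.

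Promoter sequences are given for the members that moved in the mean response over exposure and that have a single start site in RefSeq's table (GRCh38.p14), which holds 55 windows for 27 of the 30 members. SLC2A3, PFKFB2 and SLC16A1 have no entry, and HK1 has 7 windows. Each sequence is the 250 bases before the start site, 5′ to 3′ on the gene's strand, with the core of the hypoxia response element, ACGTG or GCGTG on either strand, in capitals.
PDK4: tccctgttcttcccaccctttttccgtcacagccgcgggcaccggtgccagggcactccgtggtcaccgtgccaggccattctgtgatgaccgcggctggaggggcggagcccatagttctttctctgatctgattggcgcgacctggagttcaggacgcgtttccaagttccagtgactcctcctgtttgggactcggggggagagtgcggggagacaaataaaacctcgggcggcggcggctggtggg
PFKFB4: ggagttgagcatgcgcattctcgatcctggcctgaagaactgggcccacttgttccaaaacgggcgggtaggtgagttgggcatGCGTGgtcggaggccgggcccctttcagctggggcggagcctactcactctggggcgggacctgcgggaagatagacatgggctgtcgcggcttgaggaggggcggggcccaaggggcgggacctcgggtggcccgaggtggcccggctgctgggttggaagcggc
PKM: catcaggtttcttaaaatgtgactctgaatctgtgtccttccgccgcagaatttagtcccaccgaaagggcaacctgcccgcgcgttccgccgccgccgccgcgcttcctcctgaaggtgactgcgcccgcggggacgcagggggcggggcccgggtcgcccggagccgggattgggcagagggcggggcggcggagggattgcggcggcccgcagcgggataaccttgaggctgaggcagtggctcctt
PDHB: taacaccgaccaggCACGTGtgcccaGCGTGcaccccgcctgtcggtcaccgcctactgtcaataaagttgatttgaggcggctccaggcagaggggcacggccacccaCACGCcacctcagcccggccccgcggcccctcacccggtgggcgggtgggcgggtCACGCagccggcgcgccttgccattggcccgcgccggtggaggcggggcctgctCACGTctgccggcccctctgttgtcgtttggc
The windows lie on the minus strand at chr7:95596517-95596766 for PDK4, chr3:48556804-48557053 for PFKFB4, chr15:72231191-72231440 for PKM and chr3:58433833-58434082 for PDHB. PDHB had 6 matches, of which the pair within CACGTG overlap, PFKFB4 had 1, and PDK4 and PKM had 0. At least 1 match was present in 43.2% of the 35116 windows of this length in the table and in 54.5% of the 55 windows of members. The AP-1 motif TGANTCA was found in 6.57% of all windows and in 5.45% of the windows of members. The NF-κB consensus was found in 6.88% of all windows and in 14.5% of those of members, which were 8 windows of 6 genes. Several windows of 1 gene were counted separately. The AP-1 and NF-κB motifs had 0 matches in the 4 windows shown, while HK1, which is not shown, had matches to both. The E-box CAGGTG, scanned as the motif of the transcription factor SLUG, was found in 17.5% of all windows and in 10.9% of those of members. It too had 0 matches in the 4 windows shown and was matched in HK1.

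In untreated cells the members spanned a wide range of levels. Per exonic length (RPKM, CPM divided by the exonic length in kilobases), the median of the 18 control libraries was highest for GAPDH, at 1500, followed by ENO1 at 525, PKM at 386, ALDOA at 378 and LDHA at 338. The ranges of PKM, 305 to 440, and ALDOA, 176 to 412, overlapped, and so did those of LDHA and TPI1. SLC2A3 at 28.3 RPKM and SLC2A1 at 24 RPKM, both glucose importers, lay in the middle of the order with overlapping ranges. The lowest levels belonged to HK2, with a median of 0.366 RPKM, and PDK3, at 0.365 RPKM. Over the 6 control collections 0 of the 30 members passed edgeR's test, where 0.00521% of all tested genes did, while 3 members, HK2, PFKFB2 and PDK1, had an unadjusted p under 0.05, as did 3.62% of all genes, and DESeq2 called 1 member and 0.168% of all genes.

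At single time points few members responded to IL-1β. SLC2A3, PDK4 and HK1 were the only members past the threshold at a single time point in this fit. At day 6 of exposure 2 members, SLC2A3 and PDK4, passed, where 4.27% of all tested genes passed the test. At days 15 and 21 there were 3 members each, where 6.43% and 6.4% of all genes passed. After withdrawal the numbers were 2, 2 and 1 at days 6, 15 and 30, against 2.62%, 1.36% and 1.31% of all genes. The median log2 fold change of the members stayed between −0.16 and 0.22 at the 6 time points, and that of all tested genes between −0.02 and 0.02. Without the 11 mitochondria-rich libraries, 7, 7 and 6 members passed at days 6, 15 and 21 of exposure, and these included SLC2A3, HK1 and PDK4 at each of these days. The share of all genes that passed was also higher then, at 7.84%, 10.6% and 11.4%.

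**Figure D1:**
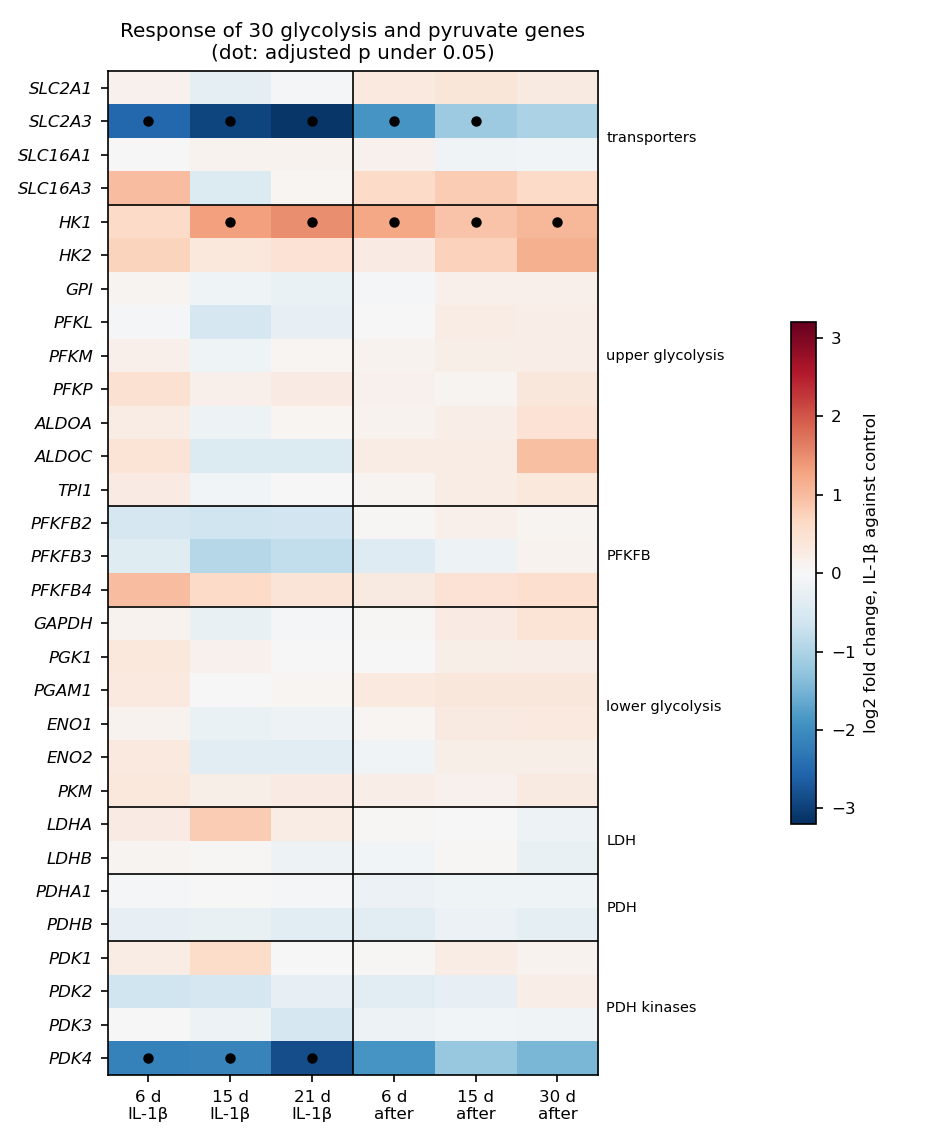
Log2 fold change of IL-1β against control for the 30 members (rows, grouped by role) at the 6 time points (columns), as colour, with a dot where the adjusted p is under 0.05. SLC2A3 and PDK4 are the 2 dark blue rows and HK1 the red row, with little colour elsewhere.

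Over the 3 exposure time points together, 9 of the 30 members passed the test, where 15.3% of all tested genes did. HK1, PFKFB4 and PKM rose, and SLC2A3, PDK4, PFKFB2, PFKFB3, PDK2 and PDHB fell. In the mean response after withdrawal 5 members passed, where 7.71% of all genes did, with HK1 and HK2 higher and SLC2A3, PDK4 and PDHB lower. Without the mitochondria-rich libraries 14 members passed over exposure, where 23.8% of all genes did, among them HK2, PFKP, PGK1, LDHA and PDK3 in addition to the same 9. A change of more than 2-fold beside the adjusted p was seen for SLC2A3, HK1 and PDK4 in both mean responses, where 5.54% and 2.39% of all genes met both criteria. Leaving out all libraries of 1 replicate number lowered the 9 members over exposure to 3 without replicate 1, 6 without replicate 2 and 5 without replicate 3, where 7.23%, 12.8% and 10.1% of all genes passed. The 5 after withdrawal became 2, 3 and 4, where 2.4%, 4.52% and 5.57% of all genes passed. SLC2A3, HK1 and PDK4 passed over exposure in each of these fits.

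**Figure D2:**
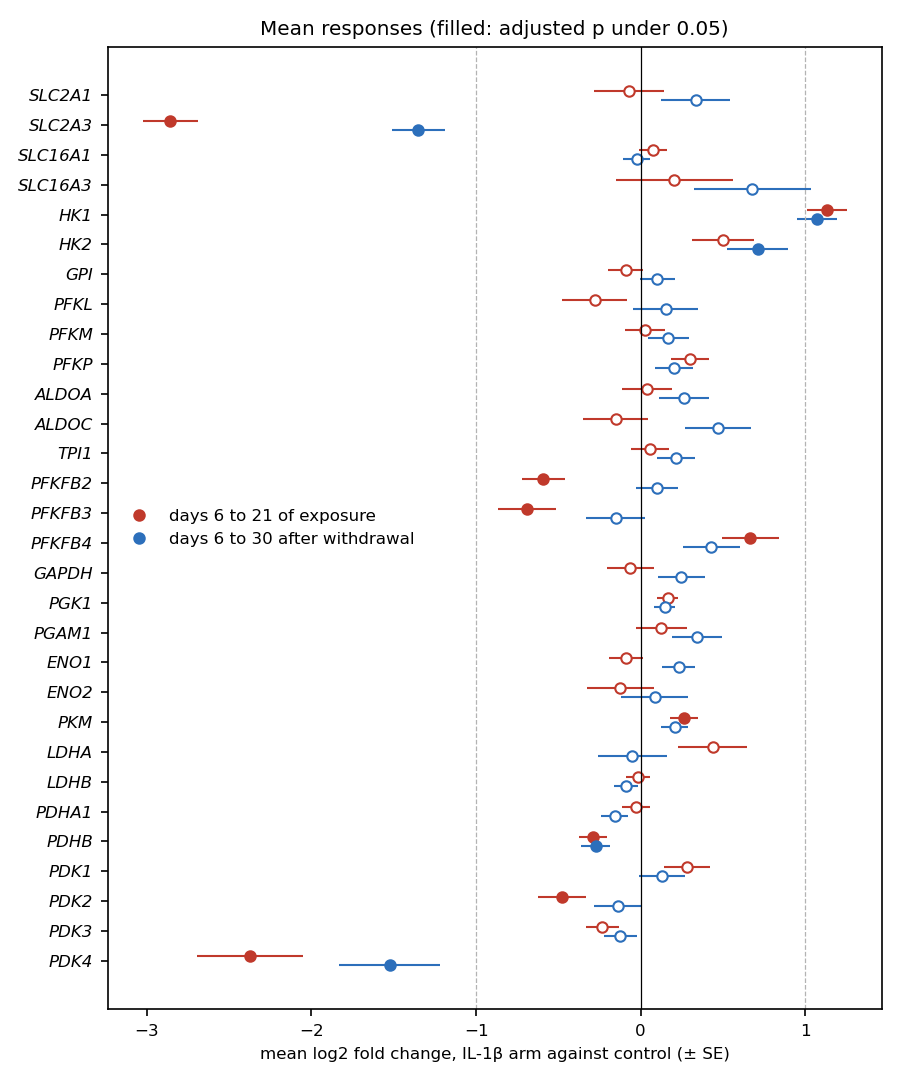
Mean log2 fold change ± SE of each member over the 3 exposure time points (red) and the 3 time points after withdrawal (blue), with filled points at an adjusted p under 0.05 and dashed lines at a 2-fold change. SLC2A3 and PDK4 lie far to the left of 0 in both phases and HK1 to the right, and 24 of the 30 members lie within 0.5 of 0 during exposure.

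Of the transporters, SLC2A3 (ENSG00000059804, chromosome 12, 8071826 to 8171603, GRCh37), which encodes the high-affinity glucose transporter GLUT3, gave the largest mean response of the 30 during exposure. At day 6 of exposure its level in the 3 control libraries was 171, 160 and 331 CPM, and in the 3 IL-1β libraries 35.9, 40.7 and 39.3 CPM. At day 15 the controls had 196, 194 and 246 CPM and the exposed cells 24, 27.5 and 31.5 CPM. At day 21 they had 219, 214 and 264 CPM against 24.8, 22.5 and 33.2 CPM. Every control library thus lay above every exposed library, and the highest exposed value over the phase, 40.7 CPM, was far under the lowest control value, 160 CPM. The log2 fold change was −2.51 (SE 0.287, adjusted p = 7.36e-07) at day 6, −2.94 (SE 0.292, adjusted p = 5.64e-08) at day 15 and −3.11 (SE 0.294, adjusted p = 2.12e-08) at day 21. The mean response over exposure was a log2 fold change of −2.86 (SE 0.168), a 7.25-fold lower level (adjusted p = 2.11e-13). In these bulk libraries, less transcript per cell and fewer cells with the transcript cannot be told apart.

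After withdrawal SLC2A3 stood closer to the controls than during exposure, and below them in every library of the same day. At day 6 after withdrawal the controls had 171, 183 and 196 CPM and the previously exposed cells 40.8, 40.8 and 67.4 CPM. At day 15 the values were 148, 137 and 255 CPM against 63.2, 60.5 and 118 CPM. At day 30 they were 244, 214 and 283 CPM against 108, 107 and 152 CPM. The groups did not overlap at any of these days, although 1 previously exposed library of day 30, at 152 CPM, lay within the range of the controls of day 15. The log2 fold change was −1.88 (SE 0.280, adjusted p = 0.000121) at day 6, −1.16 (SE 0.274, adjusted p = 0.0254) at day 15 and −1.01 (SE 0.273, adjusted p = 0.0623) at day 30. The response after withdrawal differed from that during exposure by 1.51 on the log2 scale (SE 0.223, adjusted p = 6.92e-05), a comparison in which 2.33% of all genes and 2 members, SLC2A3 and PFKFB2, passed. Between the response at day 21 and that 30 days after withdrawal the difference was 2.10 (SE 0.387, adjusted p = 0.00406), where 0.73% of all genes and 1 member passed. Without the mitochondria-rich libraries, the fold change at day 15 after withdrawal was −0.69 (adjusted p = 0.717), with 1 control library of 148 CPM left. Without replicate 1 the adjusted p for day 6 became 0.109, that for day 15 became 0.60 and that for the difference between days 21 and 30 became 0.485, and without replicate 2 it was 0.268 at day 15 and 0.197 for that difference.

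SLC2A3 shares near-identical sequence with its neighbour SLC2A14, which encodes the transporter GLUT14, so the division of reads between this pair is uncertain. SLC2A14 had a lowest, median and highest level of 19.1, 32.4 and 49.7 CPM in the 9 controls of the exposure phase and of 3.14, 4.01 and 6.38 CPM in the 9 exposed libraries. It fell by 2.88 in the mean response over exposure (SE 0.177, adjusted p = 5.05e-13) and by 1.29 after withdrawal (SE 0.167, adjusted p = 2.82e-06). The 2 genes thus had like responses in the counts as deposited.

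SLC2A1, which encodes the widely expressed importer GLUT1, did not pass the test in either phase. Its lowest, median and highest levels over exposure were 115, 163 and 199 CPM in the controls and 60.1, 166 and 187 CPM in the exposed cells, with a mean log2 fold change of −0.07 (SE 0.211, adjusted p = 0.917). After withdrawal the controls had 66.6, 128 and 182 CPM and the other arm 80.7, 178 and 214 CPM, a difference of 0.33 (SE 0.212, adjusted p = 0.421). Of the summed RPKM of both importers, SLC2A3 made up a median of 52.7% in the controls of the exposure phase and 14.9% in the exposed cells. After withdrawal its share was 59.2% in the controls and 34.7% in the other arm. The lactate and pyruvate exporters SLC16A1 (MCT1) and SLC16A3 (MCT4) did not pass the test at any time point or in a mean response. SLC16A3 was low, between 2.06 and 20.8 CPM in all libraries, and its mean log2 fold change of 0.68 after withdrawal (SE 0.358, adjusted p = 0.316) was 0.32 without the mitochondria-rich libraries.

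Of the upper glycolytic enzymes, HK1 (ENSG00000156515, chromosome 10, 71029740 to 71161640, GRCh37), the hexokinase that traps glucose in the cell as its phosphate, rose and stayed high after withdrawal. At day 6 of exposure the controls had 52.8, 59.2 and 45.0 CPM and the exposed cells 84.5, 74.9 and 81.5 CPM. At day 15 the values were 54.6, 54.1 and 40.4 CPM against 125, 127 and 116 CPM. At day 21 they were 64.4, 57.9 and 53.8 CPM against 151, 179 and 160 CPM. No exposed library overlapped a control library, and the lowest exposed level of the phase was 74.9 CPM. The log2 fold change was 0.62 (SE 0.206, adjusted p = 0.101) at day 6, 1.30 (SE 0.208, adjusted p = 7.76e-05) at day 15 and 1.48 (SE 0.209, adjusted p = 1.24e-05) at day 21. The response at day 21 exceeded that at day 6 by 0.86 (SE 0.290), which did not pass the correction (adjusted p = 1.00), in a comparison where 0 members and 0.0104% of all genes passed and DESeq2 also called 0 members. An unadjusted p under 0.05 was seen for 3 members, HK1, PGK1 and PDK3, and for 2.24% of all genes.

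After withdrawal HK1 was at 72.7, 68.8 and 41.6 CPM in the controls of day 6 and at 144, 181 and 108 CPM in the previously exposed cells. At day 15 the values were 53.1, 77.4 and 52.4 CPM against 121, 127 and 94.4 CPM. At day 30 they were 48.5, 56.9 and 34.7 CPM against 101, 107 and 85.6 CPM. The 9 control and 9 previously exposed libraries did not overlap, 30 days after the last exposure included. The mean log2 fold change was 1.07 after withdrawal (SE 0.120, adjusted p = 2.92e-07) and 1.13 during exposure (SE 0.120, adjusted p = 2.35e-08). The difference between the phases was −0.06 (SE 0.167, adjusted p = 0.879). By day the log2 fold change was 1.24 (SE 0.208, adjusted p = 0.000471), 0.90 (SE 0.207, adjusted p = 0.0202) and 1.07 (SE 0.208, adjusted p = 0.00491), and without replicate 1 the adjusted p-values were 0.129, 0.848 and 0.518. Without replicate 2 they were 0.157 at day 15 and 0.0869 at day 30. HK1 had somewhat higher levels in the mitochondria-rich controls, and its mean responses without such libraries were 1.17 and 1.27.

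**Figure D3:**
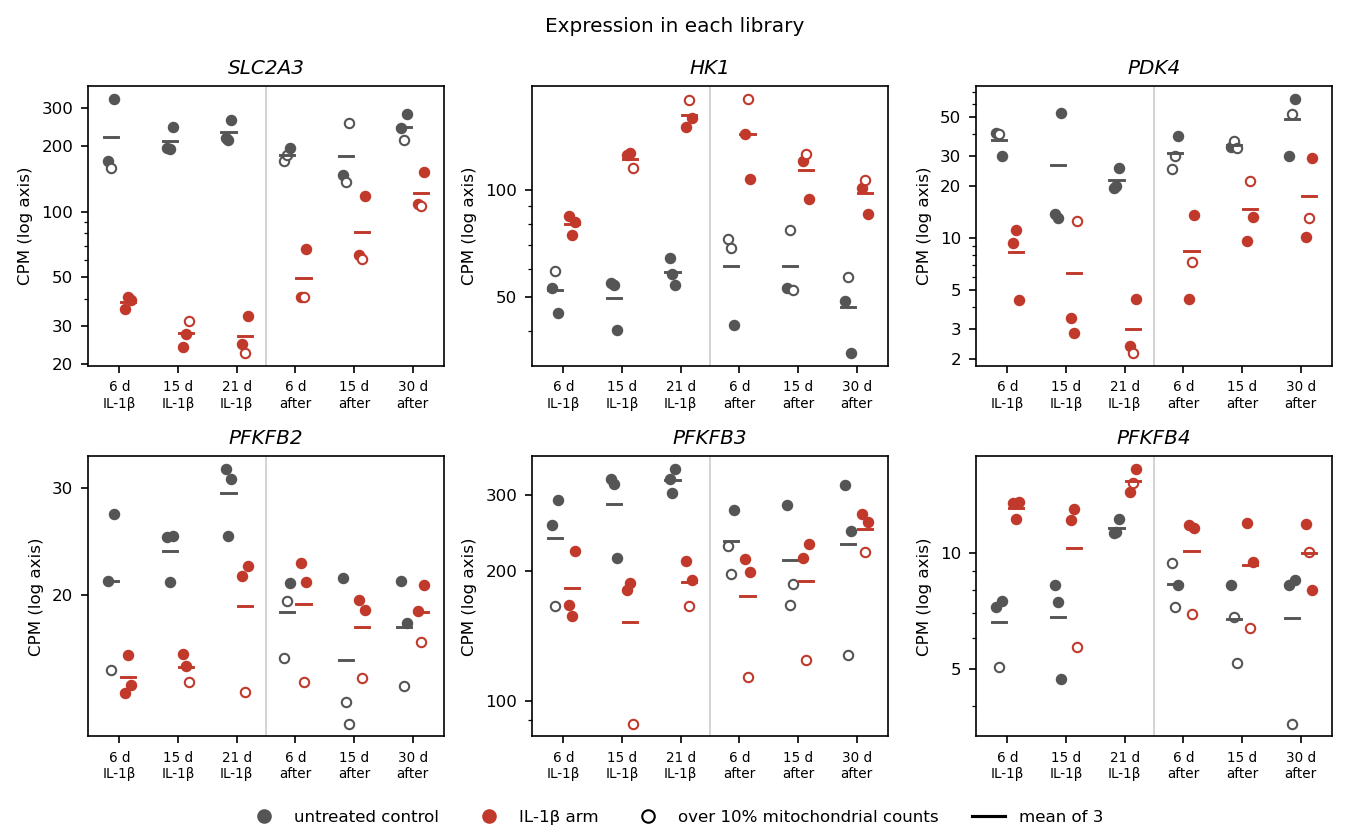
CPM on a log axis in each of the 36 libraries for SLC2A3, HK1, PDK4, PFKFB2, PFKFB3 and PFKFB4, with controls in grey, the IL-1β arm in red, open symbols for libraries of over 10% mitochondrial counts and bars for the mean of 3. The arms are apart at every time point for SLC2A3, HK1 and PDK4, and for the PFKFB genes they overlap at each day after withdrawal.

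HK2, the inducible hexokinase of many tumours, was a minor transcript here, and HK1 made up between 91.4% and 98.3% of the summed RPKM of both in the controls. HKDC1, a hexokinase-like gene outside the 30 members, is not in this sum. Its median in the controls of the exposure phase was 87.7 CPM, against 54.1 CPM for HK1. The lowest, median and highest levels of HK2 after withdrawal were 1.16, 2.15 and 5.53 CPM in the controls and 2.67, 4.55 and 5.57 CPM in the previously exposed cells. The mean response after withdrawal was 0.71 (SE 0.186, adjusted p = 0.0132), and that over exposure 0.50 (SE 0.187, adjusted p = 0.0732). During exposure the levels were 0.870, 2.19 and 4.22 CPM in the controls and 1.90, 3.60 and 5.46 CPM in the exposed cells. The medians were higher in the IL-1β arm in both phases, with overlapping ranges. The call after withdrawal was lost without replicate 1 (adjusted p = 0.394) and without replicate 2 (adjusted p = 0.0922), and HK2 passed over exposure without replicate 3 (0.76, adjusted p = 0.00353).

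The other 7 upper glycolytic members, GPI, PFKL, PFKM, PFKP, ALDOA, ALDOC and TPI1, did not pass the test at any time point or in a mean response. PFKP, the platelet-type phosphofructokinase and the main isoform here at a median of 71.9% of phosphofructokinase RPKM in the controls of the exposure phase, had a mean log2 fold change over exposure of 0.30 (SE 0.115, adjusted p = 0.0866). Without the mitochondria-rich libraries it was 0.36 (adjusted p = 0.00358), and the levels were 299, 396 and 431 CPM in all 9 controls and 284, 471 and 530 CPM in the 9 exposed libraries. Annotated pseudogenes held 8.6% of the counts of TPI1 and its pseudogenes together and 6.79% of those of GAPDH and its own, so the division of reads is uncertain for both.

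The 3 PFKFB genes, bifunctional enzymes that set the level of fructose 2,6-bisphosphate, moved in different directions during exposure. PFKFB3, the form whose kinase activity far exceeds its phosphatase activity, was at 166, 302 and 344 CPM (lowest, median and highest of 9) in the controls and at 88.5, 180 and 222 CPM in the exposed cells. It fell by 0.69 on the log2 scale over exposure (SE 0.178, adjusted p = 0.00578), a 1.62-fold lower level. PFKFB2 was at 15.0, 25 and 32.2 CPM in the controls and at 13.8, 15.3 and 22.3 CPM in the exposed cells, and fell by 0.59 (SE 0.129, adjusted p = 0.00112). PFKFB4 went the other way, with 4.70, 7.5 and 12.3 CPM in the controls and 5.69, 13.5 and 16.5 CPM in the exposed cells. It rose by 0.67 (SE 0.171, adjusted p = 0.00577).

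For each of the 3 genes the ranges of the 9 control and 9 exposed libraries overlapped, and the groups were apart at 2 of the 3 exposure days. The mitochondria-rich libraries held low values of all 3. In the controls, those libraries had a median level lower by 0.76, 0.66 and 0.46 on the log2 scale for PFKFB3, PFKFB2 and PFKFB4. Without these libraries the mean responses were −0.63, −0.57 and 0.73, with adjusted p-values of 2.34e-05, 7.89e-06 and 2.22e-05. All 3 lost the call without replicate 1, with adjusted p-values of 0.126, 0.0603 and 0.102, and PFKFB3 and PFKFB2 also without replicate 3, at 0.0961 and 0.0894. PFKFB3 remained the main form throughout, at a median of 92.2% of the summed RPKM in the controls and 88.4% in the exposed cells, while the share of PFKFB4 was 2.64% and 6.24%. The PFKFB4 shares of the exposure phase did not overlap, at 2.02% to 3.45% in the controls and 5.54% to 8.06% in the exposed cells.

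After withdrawal none of the 3 PFKFB genes passed the test. PFKFB2 had a mean log2 fold change of 0.10 (SE 0.129, adjusted p = 0.708), and its response differed from that during exposure by 0.69 (SE 0.182, adjusted p = 0.0373), which was 0.69 without replicate 1 (adjusted p = 0.516) and 0.51 without replicate 3 (adjusted p = 0.739). PFKFB3 was at −0.15 (SE 0.177, adjusted p = 0.668), and its difference between the phases, 0.54 (SE 0.250, adjusted p = 0.406), did not pass. PFKFB4 was at 0.43 (SE 0.173, adjusted p = 0.151), and for it too a difference between the phases was not shown (−0.24, SE 0.243, adjusted p = 0.687).

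**Figure D4:**
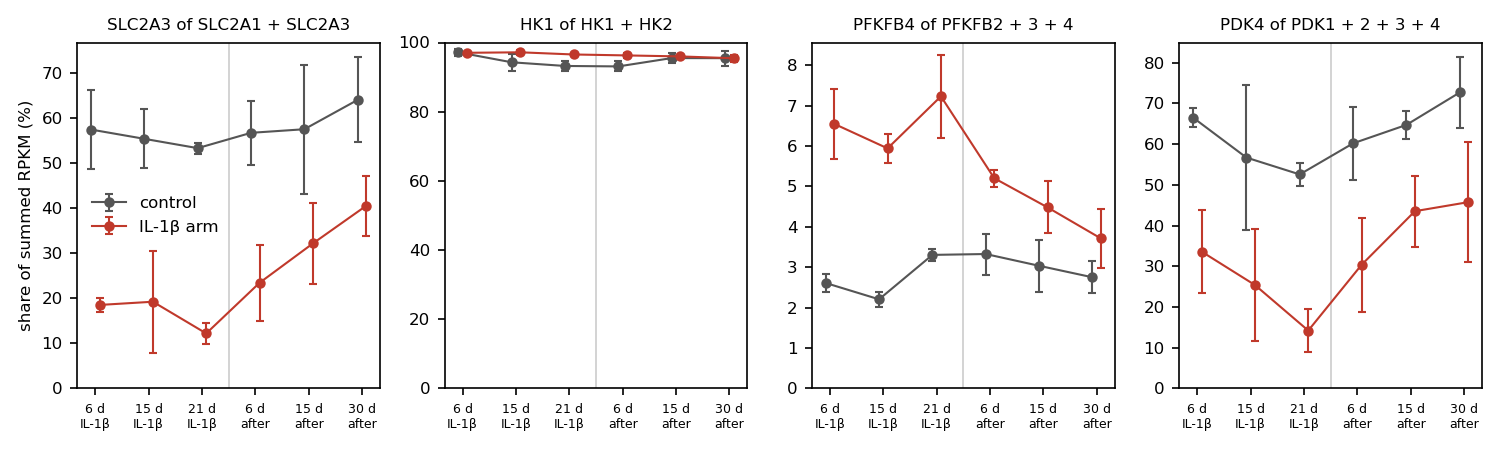
Share (%) of a gene in the summed RPKM of its step, mean ± SD of 3 libraries, in controls (grey) and the IL-1β arm (red) at each time point, for SLC2A3 among 2 glucose importers, HK1 among 2 hexokinases, PFKFB4 among 3 PFKFB genes and PDK4 among 4 PDK genes. The shares of SLC2A3 and PDK4 fall in the exposed cells and climb after withdrawal, that of PFKFB4 does the reverse, and HK1 makes up at least 91.4% in every library.

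Of the lower glycolytic enzymes, PKM, the pyruvate kinase that forms pyruvate and ATP in the last step, was the 1 member of 6 that moved. Its lowest, median and highest levels over exposure were 2736, 3368 and 3734 CPM in the controls and 2945, 4060 and 4532 CPM in the exposed cells. It rose by 0.26 (SE 0.0839, adjusted p = 0.0312), a 1.20-fold higher level, and the arms were apart at 2 of the 3 days. Without the mitochondria-rich libraries it rose by 0.31 (adjusted p = 0.000539), and the arms did not overlap. With any 1 replicate number left out, PKM did not pass, with adjusted p-values between 0.0884 and 0.332. Counts per gene do not separate the M1 and M2 splice forms. GAPDH, PGK1, PGAM1, ENO1 and ENO2 had mean log2 fold changes over exposure between −0.12 and 0.16 and none passed. Those of PGK1 were 0.16 (SE 0.0635, adjusted p = 0.0875) with all libraries and 0.19 (adjusted p = 0.0171) without the mitochondria-rich ones.

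LDHA, the lactate dehydrogenase subunit that favours lactate formation, was higher in the exposed cells with the arms apart at each exposure day, but it did not pass the test over all libraries. The controls of the exposure phase had 1246, 2030 and 2356 CPM and the exposed cells 2064, 2305 and 4760 CPM, with a mean log2 fold change of 0.44 (SE 0.210, adjusted p = 0.203). LDHA also moved with the mitochondrial share, since in the controls its median was 3438 CPM in the 6 mitochondria-rich libraries and 1934 CPM in the other 12. Without mitochondria-rich libraries the levels were 1246, 2020 and 2356 CPM against 2064, 2301 and 2441 CPM, and LDHA rose by 0.30 (SE 0.0932, adjusted p = 0.0214). After withdrawal the fold change was −0.05 (SE 0.210, adjusted p = 0.919) with all libraries, with medians of 3104 CPM in the controls and 2353 CPM in the other arm. Without the mitochondria-rich libraries it turned to 0.31 (SE 0.119, adjusted p = 0.141), with medians of 1833 and 2318 CPM. LDHB, the subunit that favours pyruvate formation, was at 663, 886 and 954 CPM in the controls and 719, 864 and 970 CPM in the exposed cells, a difference of −0.02 (SE 0.0726, adjusted p = 0.94). With the high mitochondrial share as a term of the model, LDHA also passed over exposure.

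**Figure D5:**
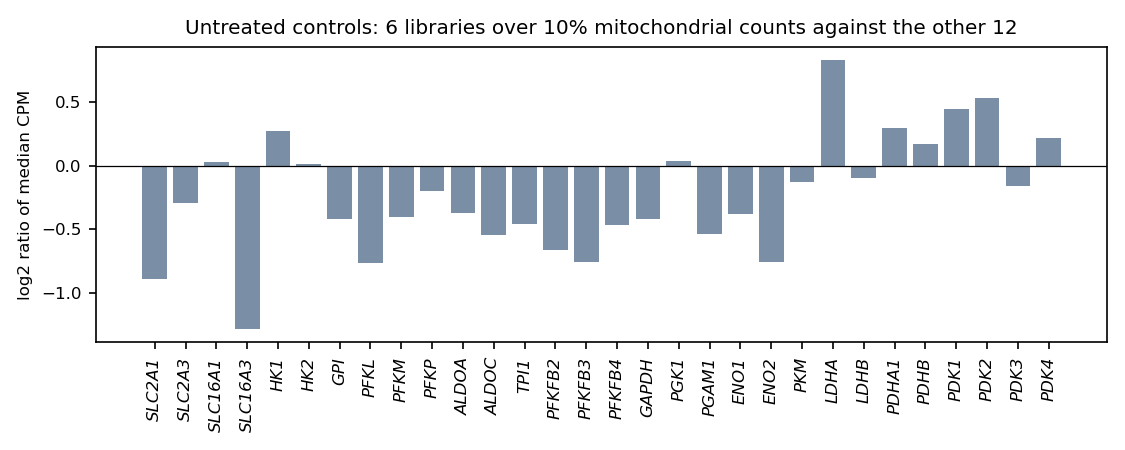
Log2 ratio of the median CPM in the 6 untreated control libraries with over 10% mitochondrial counts to that in the other 12, for each member. LDHA stands highest, at 0.83, and SLC16A3 lowest, at −1.28, and 20 of the 30 members are under 0.

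Pyruvate dehydrogenase joins glycolysis to the tricarboxylic acid cycle. PDHB, its E1 beta subunit, was at 63.5, 65.1 and 71.1 CPM in the controls of the exposure phase and 47.9, 53.2 and 68.1 CPM in the exposed cells. It fell by 0.29 (SE 0.0858, adjusted p = 0.0182) over exposure and by 0.27 (SE 0.0859, adjusted p = 0.046) after withdrawal. The 1 exposed library that reached the control range was mitochondria-rich, and without such libraries the exposed cells had 47.9 to 53.9 CPM and PDHB fell by 0.34 (adjusted p = 1.2e-05). After withdrawal the value without those libraries was −0.18 (adjusted p = 0.0814). With any 1 replicate number left out, neither mean response of PDHB passed, at adjusted p-values of 0.0768 to 0.329 over exposure and 0.112 to 0.47 after withdrawal. PDHA1, the E1 alpha subunit, had a mean log2 fold change of −0.03 (SE 0.0836, adjusted p = 0.918) over exposure. Of the exonic length of PDHA1, 19.3% lies opposite MAP3K15 on the other strand, and 17.6% of that of GAPDH and 11.3% of that of ALDOC lie opposite other genes, so these counts too may hold reads of both strands.

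PDK4 (ENSG00000004799, chromosome 7, 95212811 to 95225828, GRCh37), the kinase that spares glucose by blocking pyruvate oxidation and is induced by fasting, gave the largest mean change among the enzymes in both phases. At day 6 of exposure the controls had 40.7, 40.2 and 30.0 CPM and the exposed cells 9.45, 11.1 and 4.38 CPM. At day 15 the values were 13.8, 13.1 and 52.9 CPM against 3.46, 2.85 and 12.5 CPM. At day 21 they were 19.6, 20.1 and 25.5 CPM against 2.39, 2.2 and 4.43 CPM. The arms were apart at each day and over the whole phase, since the lowest control, 13.1 CPM, was just above the highest exposed library, 12.5 CPM. The log2 fold change was −2.16 (SE 0.547, adjusted p = 0.0167) at day 6, −2.13 (SE 0.555, adjusted p = 0.0151) at day 15 and −2.83 (SE 0.572, adjusted p = 0.00137) at day 21. Without replicate 1 the adjusted p-values were 0.276, 0.218 and 0.0813, and without replicate 2 they were 0.115 at day 6 and 0.0868 at day 15.

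After withdrawal PDK4 was at 25.1, 29.9 and 38.9 CPM in the controls of day 6 and 4.48, 7.30 and 13.7 CPM in the previously exposed cells. At day 15 it was at 33.7, 36.6 and 33.2 CPM against 9.68, 21.5 and 13.3 CPM. At day 30 it was at 30.0, 52.5 and 64.1 CPM against 10.2, 13.1 and 29.2 CPM. All previously exposed libraries were below the controls of their day, but no single day passed the correction, with adjusted p-values of 0.0609, 0.464 and 0.267. With the high mitochondrial share as a covariate, day 6 passed, at −1.84 (adjusted p = 0.030). The mean response after withdrawal did, at −1.53 (SE 0.308, adjusted p = 0.00107), a 2.88-fold lower level, against −2.37 (SE 0.322, adjusted p = 1.86e-06) during exposure. Without replicate 1 the value after withdrawal was −1.40 (adjusted p = 0.088). The difference between the phases was 0.85 (SE 0.433, adjusted p = 0.474).

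Of the other kinases, PDK2 alone passed in this fit. It was at 8.24, 8.92 and 18.4 CPM in the controls of the exposure phase and 5.79, 6.98 and 9.80 CPM in the exposed cells, and fell by 0.48 (SE 0.147, adjusted p = 0.023), a call lost with any 1 replicate number left out (adjusted p = 0.0581 to 0.212). Of its exonic length, 38.6% overlaps SAMD14 on the other strand, and the strand setting of the counting is not stated, so its reads may be shared. PDK1, a known hypoxia target, was at 15.5, 21.7 and 36 CPM against 20.8, 26.7 and 37.9 CPM, with a log2 fold change of 0.28 (SE 0.141, adjusted p = 0.23). PDK4 made up a median of 55.7% of the summed RPKM of the 4 kinases in the controls of the exposure phase and 20.1% in the exposed cells, whose summed level was 10.0 and 4.63 RPKM. PDK1 had the highest median share in the exposed cells, 42.3%, but its range, 24% to 53.5%, overlapped that of PDK4, 10.3% to 42.0%, and at day 6 the mean share of PDK4 was 33.6% against 29.6% for PDK1.

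Genes around the pathway were read from lists of the same kind. Of 26 other glycolysis genes, 15 were tested. In the mean response over exposure 4 of these rose and 1 fell, where 7.54% of all tested genes rose and 7.81% fell. HKDC1 rose by 0.47 (adjusted p = 0.000429) and PGM1, phosphoglucomutase, by 0.38 (adjusted p = 0.000699). Of 19 tested pyruvate genes, 1 rose and 1 fell, against the same shares of all genes. These were PDP1, a phosphatase that reactivates pyruvate dehydrogenase, at 0.80 (SE 0.116, adjusted p = 5.47e-06), and LDHD, D-lactate dehydrogenase, at −1.06 (SE 0.325, adjusted p = 0.0228). LDHD was very low, at 0.651 to 2.37 CPM in the controls and 0.250 to 1.45 CPM in the exposed cells. Its arms overlapped, and it did not pass at any single exposure day. PDP1 went from a median of 12.4 to 21.6 CPM with no overlap of the 9 and 9 libraries, while PDK4 and PDK2, whose phosphorylation it reverses, were lower. After withdrawal 3 of the other glycolysis genes rose and 1 fell, and 1 of the pyruvate genes rose, where 4.43% of all genes rose and 3.28% fell.

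In the pentose phosphate pathway, which branches off at glucose 6-phosphate, 2 of 7 tested genes fell and 0 rose over exposure, where 7.81% of all genes fell. PGD fell by 0.38 (adjusted p = 0.000764) and TKT by 0.75 (adjusted p = 0.00203). Of the 16 genes of the tricarboxylic acid cycle, 1 fell, SDHA by 0.18 (adjusted p = 0.0271), against the same 7.81% of all genes. Of 20 hypoxia-responsive and hypoxia factor genes, 6 rose and 0 fell during exposure, when 7.54% of all genes rose and 7.81% fell, and 2 rose after withdrawal, when 4.43% of all genes did. P4HA2 rose by 0.92 (SE 0.0707, adjusted p = 4.77e-11), VEGFA by 0.61 (SE 0.0982, adjusted p = 2.45e-05) and EPAS1 by 0.42 (SE 0.0800, adjusted p = 0.000253). The median log2 fold change of the hypoxia list was 0.14, against −0.01 for all tested genes, and of the members −0.02. Among the regulators of glycolysis, MYC fell by 0.32 (adjusted p = 0.0372). Of the 13 mitochondrially encoded protein genes, none passed by edgeR's test with all libraries. The fit without the mitochondria-rich libraries cannot test these genes, since their own counts chose the libraries left out.

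The summed level of the 30 members lay between 15890 and 20658 CPM in the 18 control libraries and between 16518 and 21038 CPM in the 18 libraries of the IL-1β arm. The mean sum was higher in the IL-1β arm at all 6 time points, and the arms were apart at day 6 of exposure, with 16372 to 18448 against 19168 to 20165 CPM, and at day 30 after withdrawal, with 16206 to 18719 against 19645 to 20967 CPM. At the other 4 time points they overlapped, and no test was run on the sums. The sum weighs the abundant members most. GAPDH, PKM, ENO1 and LDHA had medians of 3612, 3368, 2778 and 2030 CPM in the controls of the exposure phase. The median log2 fold change of the 30 members was −0.02 in the mean response over exposure and 0.15 in that after withdrawal. Apart from SLC2A3, HK1 and PDK4, the changes that passed in the edgeR fit of all libraries without further terms were under 2-fold. They were seen in mean responses over a phase and, for PFKFB2, in the difference between the phases.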

How the data were processed

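RNA of A549 cells was sequenced in 36 libraries of 12 groups. Per the submitters' processing notes and the study's methods, the authors made the deposited files with bcl2fastq 2.17, TopHat2 2.0.14 over Bowtie2 2.2.5 (GRCh37) and HTSeq 0.6.1, and the values are counts of reads per Ensembl gene in each library, not normalized. The kit keeps the strand, but the strand setting of the counting and the annotation release are not given in the sources used here. Rows for reads without a feature (8.48% to 18.6% per library) and for ambiguous reads (2.62% to 4.18%) were kept out of library sizes. The depth on genes was 9116032 to 23570026 reads, and the lowest count of a member in any library was 7.

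From the counts, edgeR 4.0.16 (R 4.3.3, limma 3.58.1) was run with its default filter on low counts, TMM scaling and 1 quasi-likelihood model of all 12 groups with 24 residual degrees of freedom. The groups were compared at each time point, over each phase, between phases and among the controls, with Benjamini-Hochberg adjustment over 19180 genes, a threshold of 0.05 and, as a second criterion, a fold change over 2. Of the 63677 identifiers, 55665 matched GENCODE v44 lifted to GRCh37, which gave symbols, positions and exonic lengths. DESeq2 1.42.0, other scalings, filters and subsets of libraries were alternatives. On simulated counts for day 6 over 19180 genes, 33 of 100 genes changed 2-fold and 70 of 100 changed 4-fold were recovered, with 3 false calls.

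The members and lists were chosen with earlier results of these data known. By rule, members past the threshold, and LDHA, LDHB, PKM, HK2, PFKFB3, PFKFB4, SLC2A1, SLC2A3, PDK1 and PDK4 whatever their result, were given with their values, and of each other list at most the 3 genes of smallest p over exposure among those past the threshold. Promoters come from RefSeq (GRCh38.p14), whose coordinates were kept apart from those on GRCh37.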

Additional observations from a re-analysis of the deposited data

Results flagged for a closer look

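The responses of SLC2A3 and PFKFB2 to IL-1β differed between the phases by a test of the difference itself. For SLC2A3 the response after withdrawal exceeded that during exposure by 1.51 on the log2 scale (edgeR's quasi-likelihood test, adjusted p = 6.92e-05) and was 1.72 without the mitochondria-rich libraries (adjusted p = 0.000225). Its response at day 30 after withdrawal exceeded that at day 21 of exposure by 2.10 (adjusted p = 0.00406), with the previously exposed libraries still below the controls of their day in 3 of 3 libraries. That call was lost without replicate 1 (adjusted p = 0.485) and without replicate 2 (adjusted p = 0.197). For PFKFB2 the response after withdrawal exceeded that during exposure by 0.69 (adjusted p = 0.0373) and was 0.56 without the mitochondria-rich libraries (adjusted p = 0.0132). It was lost without replicate 1 (adjusted p = 0.516), without replicate 3 (adjusted p = 0.739) and without the filter on low counts (adjusted p = 0.0981). Groups of 3 libraries are too small for a test of single outlying libraries.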

How the results depend on the processing

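For 36 results of named genes there were 373 values under alternatives. Of these, 316 kept their direction and side of the threshold, 52 lost the call, 5 gained one and 0 were marked as a change of direction. Estimates that did not pass could still change direction. That of LDHA after withdrawal turned from negative to positive without the mitochondria-rich libraries. The counts of calls moved more. Among the members at an adjusted p under 0.05, DESeq2 called 4 at day 6 of exposure, 3 at day 30 after withdrawal (3 with a 2-fold change) and 1 among the controls, where it called 5.19%, 2.36% and 0.168% of all genes. Without the filter on low counts, 1 member passed for the difference between phases. With DESeq2's size factors, or with mitochondrial genes removed, 0 of these counts moved by over 1.5 times. In a separate fit of each time point, 4 members passed at day 6 of exposure and 7 at day 21, and 0 at each day after withdrawal by either criterion, where the spread rests on 6 libraries. Over all tested genes the separate fits called 445 at day 15 (424 with a 2-fold change), 2308 at day 21, and 1, 2 and 0 after withdrawal by either criterion.

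Without the mitochondria-rich libraries, 7, 7 and 6 members passed at the exposure days, 14 in the mean response and 0 at day 15 after withdrawal by either criterion. The counts over all genes were then 1587, 2152 and 2314 at the exposure days, 4826 in the mean response and 29 at day 15 after withdrawal (27 with a 2-fold change). With that share as a covariate, 7 members passed at each exposure day, 4 at day 6 after withdrawal and 4 at day 30, and with a 2-fold change 2 at day 15 and 3 at day 30. Over all genes the covariate gave 1484 at day 6 and 2010 at day 21 of exposure, 1040 at day 6 (538 with a 2-fold change), 489 at day 15 and 648 at day 30 (314) after withdrawal, and 732 for the difference between phases.

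Leaving out each replicate number in turn gave 1 to 2 members at day 6 of exposure, 0 to 3 at day 6, 0 to 2 at day 15 (0 to 1 with a 2-fold change) and 0 to 4 at day 30 after withdrawal (0 to 3). It gave 3 to 6 members over exposure, 2 to 4 after withdrawal, 1 to 2 for the difference between phases, and 0 to 1 for day 21 against day 6, day 30 against day 21 and the controls. Over all genes it gave 190 to 547, 304 to 1190 and 315 to 890 at the exposure days, and 29 to 401, 15 to 223 and 6 to 240 at the days after withdrawal. With a 2-fold change these were 176 to 405, 284 to 890 and 299 to 634, then 29 to 290, 15 to 154 and 6 to 165. The mean responses gave 1388 to 2491 and 461 to 1053 genes, and their difference 86 to 267. Replicate 1 gave the lowest of the counts over all genes.

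Libraries of the same number deviated together in part, with a mean correlation of 0.279 over 18 pairs, from −0.336 to 0.718, with 14 pairs over 0.1 and the others not. The labels name no source that libraries of one number share, and since not every pair was over 0.1 the numbers were not taken to pair the samples. With the replicate block, 4, 5 and 5 members passed at the exposure days, where 5.07%, 7.88% and 7.34% of all genes did. After withdrawal 3 members passed at day 6, PDK4 among them (adjusted p = 0.0117), and 2 at day 30 (2 with a 2-fold change), where 3.24% and 1.9% of all genes did, and 396 genes passed at day 15. The cause of these changes was not tested. At this depth and size a 2-fold change at 1 time point was often missed on simulated counts, so members that did not pass are not shown to be unchanged.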
